A study of Mus musculus with 8 samples.

Results

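The transcripts of 10 cytosolic heat shock genes, Hspa1a, Hspa1b, Hspa8, Hsp90aa1, Hsp90ab1, Hsph1, Dnajb1, Dnaja1, Bag3 and Hsf1, were followed in bone marrow-derived mast cells (BMMCs) with and without targeting of Mettl3. The genes were chosen by name, as the main heat-inducible and constitutive chaperones of the cytosol, their helpers and their regulator, and all 10 were found among the 56748 gene IDs of the count tables. Of these, 9 passed the filter on low counts and belonged to the 14942 genes tested, while Hspa1a did not pass and was described from its counts.

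RNA-seq of poly-A RNA was performed on BMMCs grown with IL-3 from the bone marrow of young adult C57BL/6 mice, with 4 libraries in each of 2 groups. Mettl3-RNP cells, labelled with the genotype Mettl3 KO, had received Cas9 ribonucleoproteins carrying guide RNAs to Mettl3, the enzyme that places N6-methyladenosine (m6A) on mRNA. Pulsed cells, labelled Mettl3 WT, were mock transfected without the Cas9 complex, so the controls share the pulse but not the nuclease. The cells came from 4 mice, both groups carry the numbers 1 to 4, and neither group was stimulated. The targeted cells were a transfected population and not clones, so cells with an intact Mettl3 gene can remain among them.

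Levels were expressed in CPM, counts scaled to a library of 1000000 with TMM sizes, and differences as log2 of Mettl3-RNP over Pulsed. The libraries held 32643260 to 45324826 counts. Mettl3 itself fell in 4 of 4 pairs, from 22.0 ± 7.29 CPM (SD, n = 4) to 8.89 ± 3.05 CPM (SD, n = 4), a log2 fold change of -1.30 (SE 0.11, edgeR adjusted p 0.00543). Without the replicate block the value was -1.31 and the edgeR adjusted p 0.744. The groups still overlapped, since Pulsed 3 was at 11.2 CPM and Mettl3-RNP 1 at 12.3 CPM. The Mettl3 exons overlap those of Tox4 on the opposite strand, and the strand setting of the counting was not stated. All 7 mast cell markers examined were expressed, with a summed level of 32066 to 44243.5 CPM in Mettl3-RNP libraries and 36659 to 52164 CPM in Pulsed libraries. Macrophage markers summed to at most 4.25 CPM, erythroid markers to at most 4.97 CPM, T and B cell markers to at most 1.17 CPM and neutrophil markers to at most 0.373 CPM, with S100a8, S100a9, Elane and Camp at 0 in every library. The 3 basophil markers summed to 500 to 823 CPM, nearly all of it Cd200r3, which mast cells also express, while Mcpt8 stayed between 0.511 and 4.03 CPM. These are bulk samples, in which fewer cells with a transcript and less transcript per cell cannot be told apart.

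Cytosolic HSP70 proteins bind exposed hydrophobic stretches of unfolded proteins and release them in cycles of ATP hydrolysis, which J-domain proteins such as Dnajb1 and Dnaja1 start and nucleotide exchange factors such as Hsph1 and Bag3 complete. Client proteins can then pass to HSP90, which finishes the folding of kinases and steroid receptors. Hsf1, the transcription factor of the heat shock response, is held inactive by these chaperones, and on heat or proteotoxic stress it binds inverted repeats of nGAAn in the promoters of chaperone genes. Hspa1a and Hspa1b encode the stress-inducible HSP70 and, unlike the other members, have no introns. Hspa8 encodes the constitutive HSP70, and Hsp90aa1 and Hsp90ab1 encode the inducible and the constitutive HSP90. Mast cells make and store large amounts of secretory protein, whose folding begins in the endoplasmic reticulum with chaperones of its own.

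The promoters of 4 of the 5 members that hold the match on which HSF1 sites are built are shown, and that of Dnaja1 is not printed. The first pair of them is nearly identical. Each window runs from 250 bases before to 50 bases after the start of the canonical transcript, 5′ to 3′ on the strand of the gene, and capitals mark matches of the inverted repeat GAANNTTC or TTCNNGAA. Hspa1a lies on the minus strand at chr17:35191083-35191382 and Hspa1b on the minus strand at chr17:35178165-35178464. Dnajb1 lies on the plus strand at chr8:84334572-84334871 and Hsph1 on the minus strand at chr5:149559757-149560056, all in GRCm39.
Hspa1a: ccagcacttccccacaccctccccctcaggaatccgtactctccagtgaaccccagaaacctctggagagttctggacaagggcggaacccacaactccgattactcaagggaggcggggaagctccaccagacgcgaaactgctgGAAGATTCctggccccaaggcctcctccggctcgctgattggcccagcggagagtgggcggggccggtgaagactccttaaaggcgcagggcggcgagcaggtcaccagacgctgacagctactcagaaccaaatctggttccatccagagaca
Hspa1b: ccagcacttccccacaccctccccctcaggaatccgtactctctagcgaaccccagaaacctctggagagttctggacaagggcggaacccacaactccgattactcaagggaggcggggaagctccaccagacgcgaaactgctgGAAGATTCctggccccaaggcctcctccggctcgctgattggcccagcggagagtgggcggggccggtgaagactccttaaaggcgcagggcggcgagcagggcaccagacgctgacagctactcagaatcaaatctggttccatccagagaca
Dnajb1: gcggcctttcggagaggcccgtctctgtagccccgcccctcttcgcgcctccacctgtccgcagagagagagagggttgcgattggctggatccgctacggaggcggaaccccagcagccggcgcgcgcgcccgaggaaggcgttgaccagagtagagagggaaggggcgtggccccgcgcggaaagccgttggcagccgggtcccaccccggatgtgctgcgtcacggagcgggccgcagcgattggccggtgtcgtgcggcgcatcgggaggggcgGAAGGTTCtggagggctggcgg
Hsph1: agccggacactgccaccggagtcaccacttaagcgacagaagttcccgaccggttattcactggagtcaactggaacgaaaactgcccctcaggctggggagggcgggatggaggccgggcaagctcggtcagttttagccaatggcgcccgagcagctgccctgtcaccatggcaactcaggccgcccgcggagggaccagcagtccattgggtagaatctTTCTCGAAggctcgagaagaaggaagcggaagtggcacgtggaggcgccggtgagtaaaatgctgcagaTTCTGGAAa

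The windows of Hspa1a and Hspa1b differed at 4 of 300 bases, and the differences, with positions counted from 1 at the 5′ end of the printed window and the Hspa1a base first, were C44T, T47C, T249G and C276T. Both held 1 match, whose first base lay 104 bases before the start site, and none of the 4 differences fell within it. The match of Dnajb1 began at base 29 of its transcript, and the matches of Hsph1 began 28 bases before the start site and at base 42 of the transcript. Dnaja1 had 1 match, 124 bases before its start site. No match was found in the windows of Hspa8, Hsp90aa1, Hsp90ab1, Bag3 and Hsf1. In all, 5 of 10 members held a match of these letters on either strand, against 14.3% of 21770 promoters of protein-coding genes and 12.4% of the 12056 among them that were tested. Hspa1a and Hspa1b are both counted here though their windows are nearly identical, and the members were chosen as heat shock genes, so these shares are not like for like. Both motifs read the same on the opposite strand, and the 2 forms can overlap. A stricter motif of 3 alternating units was found in no member and in 0.478% of the protein-coding promoters. A match describes the letters only, and binding was not measured.

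Transcripts of several members share long stretches with other places in the genome, which bears on how well reads of this length can be assigned. Each canonical transcript was cut into all its windows of 50 bases, the read length of these libraries, and each window was looked for on both strands of GRCm39. Hspa1a is at chromosome 17 from 35188166 to 35191132 and Hspa1b at chromosome 17 from 35175412 to 35178214, both on the minus strand and both a single exon. For Hspa1a 60.3% and for Hspa1b 62.3% of the windows occurred elsewhere, and 1716 windows were common to these neighbours. Their coding sequences were identical at 99.6% of 1923 aligned bases, with 8 differences, and their 5′ parts at 98.7% of 231 bases, while the aligned 3′ parts were identical at 60.1% of bases. Hspa1a kept 1157 windows of its own, of which 764 lay after the coding sequence, and Hspa1b kept 1038, of which 597 lay there.

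For Hspa8 75.7% of the windows occurred elsewhere, most of them in the pseudogene Gm15459. For Hsp90aa1 the share was 67.9%, most of it within the Ssh2 locus, and for Dnaja1 it was 25.98%, most of it within the Psmd13 locus. Hsp90ab1 shared 7.76% of its windows and Dnajb1 0.488%, and no window of Hsph1, Bag3 or Hsf1 occurred elsewhere. By contrast, the coding sequences of functional relatives were far apart, with 74.5% identity between Hspa1a and Hspa8 and 76.2% between Hsp90aa1 and Hsp90ab1. Whether reads that fit several places were counted was not stated, so the counts of Hspa1a, Hspa1b, Hspa8, Hsp90aa1 and Dnaja1 carry this uncertainty.

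**Figure D1:**
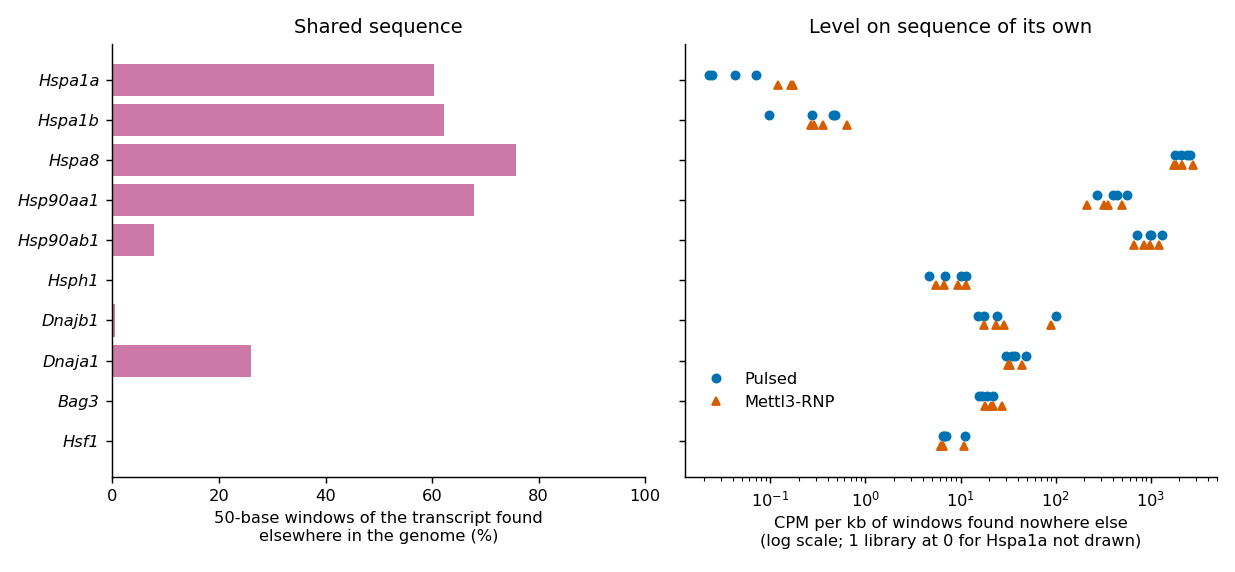
Left, share of the 50-base windows of each canonical transcript that occur elsewhere in the genome (%). Right, CPM per kb of windows found nowhere else (log scale) with 1 point for each library, circles for Pulsed and triangles for Mettl3-RNP. Hspa1a and Hspa1b, at most 0.173 and 0.644 CPM per kb, lie below the other members even when all of their counts are placed on their own sequence, and the library with no Hspa1a count is not drawn.

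Inducible HSP70 transcripts were close to absent from the counts. Hspa1a had 7, 6, 6 and 0 counts in Mettl3-RNP libraries 1 to 4 and 1, 1, 2 and 3 counts in Pulsed libraries 1 to 4. The Mettl3-RNP value was higher in pairs 1, 2 and 3 and lower in pair 4, and the library without a count could still hold up to 3 by counting error. The groups overlapped. Summed over libraries, 19 counts stood against 7, a ratio of 2.91 at equal depth with an exact 95% interval from 1.17 to 8.19, which covers counting error only and not the spread between pairs. The mean pair difference was 0.70 ± 1.36 (SD, n = 4 pairs) on the log2 scale. It was 1.38 without replicate 4, 0.41 without replicate 1, 0.51 without replicate 2 and 0.50 without replicate 3. In a fit that kept every gene with a count the log2 fold change was 1.28, with an edgeR adjusted p of 1.00.

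Hspa1b had 11, 12, 20 and 13 counts in Mettl3-RNP libraries and 17, 11, 4 and 18 in Pulsed libraries. These are 0.280 to 0.669 CPM and 0.0994 to 0.493 CPM, and the groups overlapped. Pair 3 stood apart with a log2 difference of 2.24, against -0.60, -0.03 and -0.37 in pairs 1, 2 and 4. In the fit its log2 fold change was 0.28 (SE 0.66, edgeR adjusted p 0.844) with a 95% interval from -1.23 to 1.80, and without replicate 3 it was -0.38. Summed over both genes, 75 counts stood against 57, a ratio of 1.41 with an exact 95% interval from 0.987 to 2.03 by counting error, and a fit of the summed counts gave a log2 fold change of 0.50 with an edgeR adjusted p of 0.690. No change of the inducible HSP70 was detected with these counts and this spread between pairs. For Hspa1b the counting interval alone was 0.805 to 1.80 as a ratio, against 0.425 to 3.48 in the fit, and the fitted interval of Hspa1b includes more than a doubling and more than a halving.

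Constitutive HSP70, by contrast, was abundant and varied little between pairs, though the shared sequence described above applies to it most. Hspa8 (chromosome 9, 40711630 to 40731039, plus strand, 8 introns) stood at 987, 1036, 1587 and 1219 CPM in Mettl3-RNP libraries 1 to 4 and at 1021, 1178, 1454 and 1375 CPM in Pulsed libraries. It was lower in 3 of 4 pairs, and the groups overlapped. Its fitted log2 difference was -0.07 (SE 0.078, edgeR adjusted p 0.658), with a 95% interval from -0.25 to 0.11.

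Of the HSP90 genes, Hsp90aa1, which encodes the stress-inducible isoform HSP90α, was the member nearest to the threshold. Hsp90aa1 (chromosome 12, 110656842 to 110669166, minus strand, 10 introns) stood at 238, 357, 552 and 394 CPM in Mettl3-RNP libraries and at 306, 443, 621 and 494 CPM in Pulsed libraries. Every Mettl3-RNP library was below the Pulsed library of its number, by -0.37, -0.31, -0.17 and -0.32 on the log2 scale, while the groups as a whole overlapped at 385 ± 130 and 466 ± 130 CPM (SD, n = 4 each). The fold was 0.816 with a 95% interval from 0.732 to 0.911, and the log2 fold change was -0.29 (SE 0.068). Its edgeR adjusted p was 0.0589, above the threshold of 0.05, and an exact permutation of the signs, two-sided, cannot go below 2 of 16 assignments with 4 pairs, a p above 0.05.

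Whether Hsp90aa1 passed the adjusted p alone depended on the test and the filter, while its fold change stayed under 1.5 in every fit. Its adjusted p was 0.00514 in DESeq2, 0.000796 in limma-trend after removal of the replicate effect with removeBatchEffect, the function that the study used, and 0.0414 in edgeR among genes with at least 10 counts in every library. In these fits 11.7%, 30.5% and 7.67% of all genes tested passed an adjusted p of 0.05, so passing was also more common there. In edgeR its adjusted p was 0.0696 with DESeq2 size factors, 0.0759 with library size alone, 0.3496 with every gene that had a count and 0.999 without the replicate block. When each replicate was left out in turn the log2 fold change ran from -0.34 to -0.27 and the edgeR adjusted p from 0.0661 to 0.380.

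Hsp90ab1 encodes the constitutive isoform HSP90β and was the most abundant member. It lies at chromosome 17 from 45878552 to 45891949 on the minus strand with 10 introns. It stood at 1643, 2068, 2969 and 2421 CPM in Mettl3-RNP libraries and at 1767, 2429, 3216 and 2380 CPM in Pulsed libraries. Pairs 1, 2 and 3 were lower in Mettl3-RNP cells and pair 4 was slightly higher, so the groups overlapped. The log2 fold change was -0.11 (SE 0.072, edgeR adjusted p 0.434), with a 95% interval from -0.27 to 0.06. A lncRNA on the opposite strand, Gm56882, overlaps 29.9% of its exons in GENCODE M39 but reached at most 0.998 CPM. Slc35b2, also on the opposite strand, overlaps 4.93% of them and stood at 39.7 to 65.8 CPM with a log2 fold change of 0.53 (edgeR adjusted p 0.0165).

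The J-domain proteins deliver substrates to HSP70. Dnajb1 (chromosome 8, 84334811 to 84339820, plus strand, 2 introns), which is strongly heat-inducible, stood at 81.0, 99.0, 306 and 60.8 CPM in Mettl3-RNP libraries and at 83.4, 61.5, 353 and 53.5 CPM in Pulsed libraries. Both libraries of replicate 3 were far above the rest, and the groups overlapped. The fit gave a log2 fold change of 0.15 (SE 0.14, edgeR adjusted p 0.566), with a 95% interval from -0.16 to 0.47. Pair 2 gave the largest difference, 0.69, and without replicate 2 the value was -0.029.

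Dnaja1 (chromosome 4, 40722056 to 40737149, plus strand, 8 introns) stood at 128, 135, 180 and 132 CPM in Mettl3-RNP libraries and at 143, 151, 201 and 124 CPM in Pulsed libraries. It was lower in 3 of 4 pairs, and the groups overlapped. Its log2 fold change was -0.10 (SE 0.073, edgeR adjusted p 0.480), with a 95% interval from -0.27 to 0.07. Smu1, a splicing factor gene on the opposite strand, overlaps 77.9% of the Dnaja1 exons and was itself expressed at 52.3 to 117 CPM with a log2 fold change of -0.14 (edgeR adjusted p 0.279), so reads of these neighbours may have been mixed if strand was not used.

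The nucleotide exchange factors release substrate from HSP70. Hsph1, the HSP110 of the cytosol (chromosome 5, 149537636 to 149560156, minus strand, 17 introns), stood at 57.9, 41.5, 33.9 and 70.7 CPM in Mettl3-RNP libraries and at 69.6, 42.5, 28.4 and 61.8 CPM in Pulsed libraries. Replicate 3 was the lowest of both groups, pairs 1 and 2 were lower and pairs 3 and 4 higher in Mettl3-RNP cells, and the groups overlapped. The fitted log2 fold change was 0.035 (SE 0.097, edgeR adjusted p 0.871), with a 95% interval from -0.19 to 0.26, and the value was -0.038 without replicate 3 and -0.0067 without replicate 4.

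Bag3, which links HSP70 to selective autophagy (chromosome 7, 128125283 to 128148705, plus strand, 3 introns), stood at 53.3, 45.8, 56.9 and 69.5 CPM in Mettl3-RNP libraries and at 48.2, 39.7, 56.2 and 43.4 CPM in Pulsed libraries. It was the only member higher in 4 of 4 pairs, by 0.15, 0.21, 0.02 and 0.68 on the log2 scale, a pattern that 15.7% of all genes tested showed, and the groups overlapped. In the fit its log2 fold change was 0.26 (SE 0.11), with a 95% interval from 0.01 to 0.52 and an edgeR adjusted p of 0.211. Pair 4 carried much of this value, which was 0.13 without replicate 4.

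Hsf1 (chromosome 15, 76361558 to 76388138, plus strand, 12 introns), the regulator of the heat shock genes, is controlled mostly at the protein level. Its transcript stood at 31.9, 33.6, 55.8 and 31.98 CPM in Mettl3-RNP libraries and at 33.8, 35.5, 57.1 and 33.1 CPM in Pulsed libraries. The Mettl3-RNP value was lower in 4 of 4 pairs by small and even amounts, -0.08, -0.08, -0.03 and -0.05 on the log2 scale, while the groups overlapped. Its fitted log2 difference was -0.06 (SE 0.066, edgeR adjusted p 0.647), with a 95% interval from -0.21 to 0.09. Dgat1 on the opposite strand overlaps 24.9% of the Hsf1 exons in GENCODE M39 and stood at 4.96 to 16.9 CPM. Bop1, on the same opposite strand, overlaps 5.22% of them and stood at 33.3 to 56.9 CPM, a level like that of Hsf1, with a log2 fold change of -0.30 (edgeR adjusted p 0.0580).

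**Figure D2:**
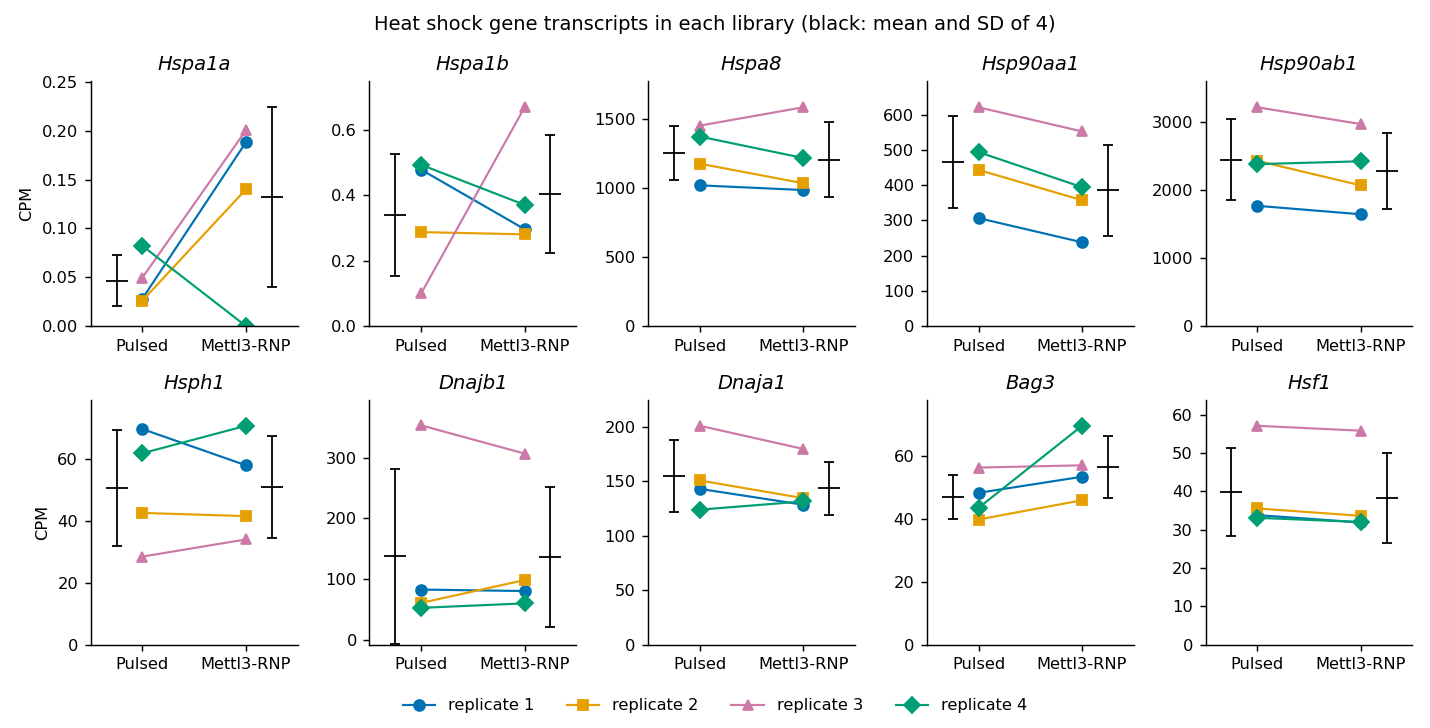
CPM of each member (vertical axes, linear, from near 0, scaled for each gene) in Pulsed and Mettl3-RNP libraries, with a line joining the libraries of each replicate number and black marks for the mean and SD of 4 libraries. The groups overlap for all 10 genes, the 4 lines of Hsp90aa1 all fall, and replicate 3 lies far above the others for Dnajb1 and Hsf1.

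None of the 9 members tested met the threshold of the edgeR test, an adjusted p of at most 0.05 together with a change of 1.5-fold, which 2.06% of all genes tested met, and none passed the adjusted p alone, which 3.74% of all genes did. An unadjusted p under 0.05 was reached by Hsp90aa1 and Bag3, 2 of 9 members, and by 22.5% of all genes tested. In DESeq2, in limma-trend after removeBatchEffect and in edgeR with the stricter count filter, 1 member passed the adjusted p, Hsp90aa1 each time. The members' fitted values were below 0 for 5 genes and above 0 for 4, with a median log2 fold change of -0.06, against -0.0013 over all genes tested. Hsp90aa1 and Hsf1 were lower in 4 of 4 pairs, a pattern of 16% of all genes tested. Of the 9 members tested, the 8 other than Hspa1b had fitted 95% intervals that ended within a fold change of 1.5 in either direction, while Hspa1a had no fitted interval.

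**Figure D3:**
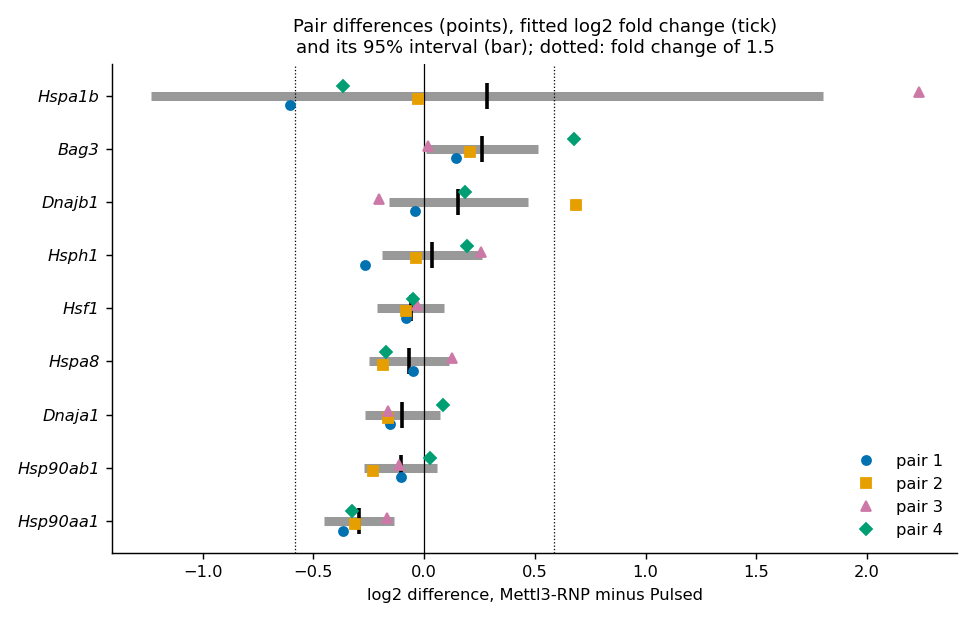
Log2 difference of Mettl3-RNP minus Pulsed (horizontal axis) for the 9 members tested, with the 4 pairs as points, the fitted log2 fold change as a tick, its 95% interval as a bar and a fold change of 1.5 as dotted lines. All 4 points of Hsp90aa1 lie left of 0 and all 4 of Bag3 right of it, while the bar of Hspa1b runs from -1.23 to 1.80.

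The intronless genes were set against the other members, since m6A in internal exons is known to be limited by exon junctions, which Hspa1a and Hspa1b lack. In each pair the mean log2 difference of Hspa1a and Hspa1b minus that of the other 8 members was 0.59, 0.64, 1.80 and -0.93 for pairs 1 to 4. The mean was 0.53 ± 1.118 (SD, n = 4 pairs), above 0 in 3 of 4 pairs and smaller than the spread between pairs. The other 8 members contributed little to this spread, with a mean difference of -0.02 and pair values between -0.12 and 0.08. The contrast rests on between 6 and 26 counts of both intronless genes in a library. Without replicate 3 its mean was 0.10, and without replicate 4 it was 1.01, so single pairs set its size.

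The sequence GGACT, a common form of the site that Mettl3 methylates, was counted in the canonical transcripts. Hspa1a held 6 in 2967 bases, 2.02 per kb, and 90.6% of tested protein-coding genes held fewer per kb. Hspa1b, for all its likeness in the coding sequence, held 1.07 per kb. Hsp90aa1 and Dnajb1 held 1.42 and 1.41 per kb, Hsf1 0.973, Bag3 0.764, Dnaja1 0.718 and Hsph1 0.648. Hspa8 and Hsp90ab1 had the fewest, with 0.418 and 0.370 per kb, and both were abundant, but Hsp90aa1, also abundant, did not share this. The median of 12056 tested protein-coding genes was 1.04 per kb, and whether any of these sites is methylated was not measured in these libraries.

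Levels between genes were compared per length, as TPM from the longest annotated transcript. In Pulsed cells Hsp90ab1 led with 1675 ± 269 TPM, followed by Hspa8 with 819 ± 97.5 TPM and Hsp90aa1 with 348 ± 74.0 TPM (SD, n = 4 each). Dnajb1 stood at 109 ± 104 TPM and Dnaja1 at 78.8 ± 10.5 TPM, and this pair could not be ordered, since Dnajb1 was the higher in only 1 of 4 Pulsed libraries. Bag3 followed with 52.9 ± 6.74 TPM. Hsph1 with 24.7 ± 10.8 TPM and Hsf1 with 22.3 ± 4.41 TPM did not separate either, with Hsph1 the higher in 3 of 4 libraries. The inducible HSP70 genes were at the bottom, with 0.372 ± 0.220 TPM for Hspa1b and 0.0466 ± 0.0274 TPM for Hspa1a. Each SD covers the spread between libraries and not the choice of length. Hspa8 in Pulsed cells was at 1239.5 TPM with the canonical transcript and at 556 TPM with the union of exons. The 3 highest genes, Hsp90ab1, Hspa8 and Hsp90aa1, held 88.4% to 93.1% of all counts of the members, which together made up 0.339% to 0.531% of a library. The order of the means was the same in Mettl3-RNP cells, where Dnajb1 was above Dnaja1, Dnaja1 above Bag3, and Hsph1 above Hsf1 in 3 of 4 libraries each.

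Most of the variation of the members lay between replicate numbers and not between groups. The share of the sum of squares of log2 CPM between replicate numbers was 99.0% for Hsf1, 96.5% for Dnajb1, 94.99% for Hsp90ab1, 94.8% for Hsph1, 90.9% for Hspa8, 90.2% for Dnaja1 and 87.6% for Hsp90aa1. The median over all genes tested was 78.3%. Bag3, with 43.3% between replicate numbers and 29.7% between groups, and the sparse Hspa1a and Hspa1b, with 19.97% and 13.2% between replicate numbers, were the exceptions. For Hsp90aa1 the groups took 11.7%, and for all genes tested the median was 5.68%.

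The replicate number that stood apart differed between members. Of the sum of squares between numbers, replicate 3 held the largest part for Hsf1 (74.2%), Dnajb1 (71.8%), Dnaja1 (70.2%), Hsph1 (50.6%) and Hspa8 (50.1%). Replicate 1, the lowest of both groups, held the largest part for Hsp90aa1 (55.5%, against 42.3% for replicate 3) and Hsp90ab1 (51.1%, against 47.5%). Replicate 2 held it for Bag3 (64.9%), and replicate 4 for the sparse Hspa1a and Hspa1b.

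On the log2 scale Dnajb1 in replicate 3 was above the mean of replicates 1, 2 and 4 by 1.96 in Mettl3-RNP cells and by 2.44 in Pulsed cells, which are folds of 3.89 and 5.42, and above the mean of replicates 1 and 2 alone by 1.77 and 2.30. Against replicates 1, 2 and 4, Hsf1 was above by 0.78 and 0.74, Hsp90aa1 by 0.78 and 0.61, Hsp90ab1 by 0.56 and 0.57, Hspa8 by 0.56 and 0.30, and Dnaja1 by 0.45 and 0.53. Hsph1 moved the other way, with -0.70 and -0.998. Hspa1b did not move the same way in both groups, with 0.98 and -1.59, and Bag3 moved by 0.04 and 0.37.

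Immediate early genes, which are transcribed within minutes of a stimulus, were high in replicate 3 and low in replicate 4. Egr1 stood at 1000, 2393, 10694.5 and 120 CPM in Mettl3-RNP libraries 1 to 4 and at 960, 1286, 8655 and 26.3 CPM in Pulsed libraries. Over 14 genes the median of replicate 3 was above replicates 1, 2 and 4 by 3.68 in Mettl3-RNP cells and 4.07 in Pulsed cells, but the low replicate 4 carried much of this. Against replicates 1 and 2 alone replicate 3 was above by 2.27 and 2.25, and replicate 4 was at -3.58 and -3.89. Over all genes tested the median of replicate 3 against replicates 1, 2 and 4 was 0.02 and 0.08. Dnajb1 was likewise lowest in replicate 4 of both groups, by -0.56 and -0.42 against replicates 1 and 2. Mettl3 was lowest in replicate 3, at 4.88 CPM in Mettl3-RNP cells and 11.2 CPM in Pulsed cells. What set replicates 3 and 4 apart was not tested, and the block takes the level of each replicate number out of the comparison of the groups.

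**Figure D4:**
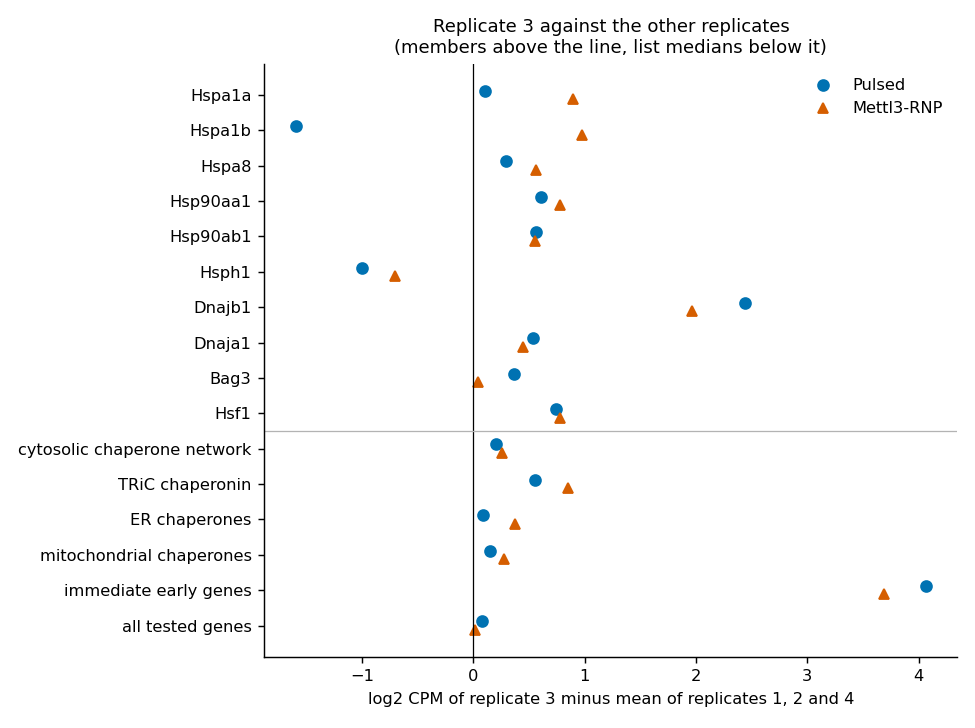
Log2 CPM of replicate 3 minus the mean of replicates 1, 2 and 4 (horizontal axis), for each member above the grey line and as the median of each gene list below it, with circles for Pulsed and triangles for Mettl3-RNP. Dnajb1 lies at 1.96 and 2.44, Hsph1 at -0.70 and -0.998, and the immediate early genes at 3.68 and 4.07, where a low replicate 4 is part of the reference.

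The other chaperone genes were examined by lists. Of 27 tested genes of the wider cytosolic network, which holds further HSP70 and J-domain proteins and the helpers of HSP90, 0 rose and 1 fell at an adjusted p of 0.05 in edgeR, against 3.74% of all genes. The gene that fell was Ptges3, which encodes the HSP90 co-chaperone p23. Ptges3 stood at 60.6, 86.3, 111 and 88.3 CPM in Mettl3-RNP libraries and at 81.9, 112, 135 and 134.8 CPM in Pulsed libraries. It was lower in 4 of 4 pairs, with a log2 fold change of -0.42 (SE 0.076, edgeR adjusted p 0.0318), and its adjusted p was 0.0932, 0.121 and 0.204 in edgeR when replicate 1, 2 or 4 was left out. The median of the list was -0.12, and 22 of 27 values were below 0, against 50.2% of all genes tested.

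The 8 subunits of TRiC, the ring-shaped chaperonin that folds actin and tubulin, had fitted values between -0.25 and -0.14, with a median of -0.22. None passed the adjusted p in edgeR, where the lowest was 0.104 and 3.74% of all genes tested passed, and 6 of 8 were lower in 4 of 4 pairs, against 16% of all genes. The values of all 8 were also below 0 with DESeq2 size factors and with library size alone, while without replicate 3 their median was -0.28 and without replicate 4 it was -0.18. Of 8 mitochondrial chaperones none passed in edgeR, against the same 3.74%, with a median of -0.14 and 6 values below 0, against 50.2% of all genes. Hspd1, the mitochondrial HSP60, had a log2 fold change of -0.15 with an edgeR adjusted p of 0.313.

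Of 15 tested chaperones and folding enzymes of the endoplasmic reticulum (ER), 1 rose and 0 fell in edgeR, against 3.74% of all genes in either direction, and the median was -0.10 with 11 values below 0, against 50.2% of all genes. The gene that rose was Pdia4, a protein disulfide isomerase, with 167, 292, 233 and 329 CPM in Mettl3-RNP libraries and 131, 192, 133 and 197 CPM in Pulsed libraries. Pdia4 was higher in 4 of 4 pairs, with a log2 fold change of 0.63 (SE 0.088, edgeR adjusted p 0.0171), and without replicate 2 its edgeR adjusted p was 0.0872. Hspa5, the HSP70 of the ER known as BiP, had a log2 fold change of 0.15 with an edgeR adjusted p of 0.274. Of 14 tested immediate early genes none passed in edgeR, against 3.74% of all genes, with a median of 0.30 and 2 values below 0, against 50.2% of all genes. In the edgeR fit of every gene with a count, 5 of 15 immediate early genes passed the adjusted p, against 2.95% of all genes in that fit. Egr1 had a log2 fold change of 0.83 (edgeR adjusted p 0.158) and was higher in 4 of 4 pairs, a pattern of 15.7% of all genes tested. The study, which used DESeq2, names Egr1 among the methylated transcripts upregulated on Mettl3 depletion. Without replicate 2 the median of the immediate early list was 0.049.

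**Figure D5:**
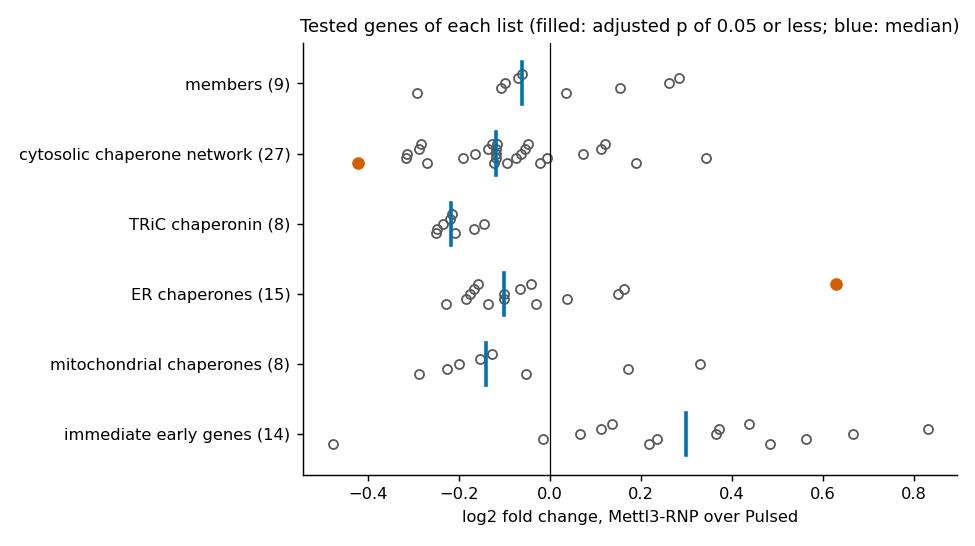
Fitted log2 fold change of Mettl3-RNP over Pulsed (horizontal axis) for each tested gene of the members and of 5 further lists, with the number of genes in brackets, filled points for an adjusted p of 0.05 or less in edgeR and a blue line for the median. The filled points are Ptges3 at -0.42 and Pdia4 at 0.63, and all 8 TRiC subunits lie left of 0.

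The genes whose profiles over the 8 libraries were most like a member were found among 9619 others with a mean of at least 5 CPM (9620 for Hspa1b), by the root mean square (RMS) difference of centred log2 CPM. Hsp90aa1 was nearest to Kars1 (RMS 0.0657), Cct8 (0.0719), Eprs1 (0.0829), Pabpc4 (0.0835) and Nudc (0.0861), of which Kars1 and Eprs1 encode aminoacyl-tRNA synthetases and Cct8 a TRiC subunit. Hspa8 was nearest to Usp15 (RMS 0.0517), Vta1 (0.0618), Tubgcp2 (0.0655), Pnpt1 (0.0687) and Eftud2 (0.0733). Hspa1b had no close neighbour, and its nearest was Bola1 at an RMS of 0.382, followed by Etaa1, Slc7a4, Ndufaf1 and Hpgds. With only 4 to 20 counts of Hspa1b in a library, counting error alone works against a small RMS, so the lack of a neighbour does not describe its profile. For Dnajb1 and Hsph1, a search added after their values were seen found Nedd9 (RMS 0.162), Zc3h12a (0.183) and Chka (0.193) nearest to Dnajb1, and Zbtb8a (RMS 0.0952) nearest to Hsph1. These points share libraries, pairs and depth, so the likeness describes the 8 libraries.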

How the data were processed

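RNA-seq libraries of 8 BMMC samples, 4 in each group, were analysed from the deposited count tables. According to the labels and the methods of the study, poly-A libraries were sequenced as paired reads of 50 bases, checked with FastQC 0.11.9, aligned with HISAT2 2.2.1 to GRCm39 and counted per Ensembl release 107 gene with featureCounts 2.0.1. The deposited counts are whole numbers without normalization, and the removeBatchEffect step in the methods, whose batch variable is not stated, is not visible in them. Gene names came from GENCODE M39 and covered 98.7% of IDs, and the share of counts on unnamed IDs was 0.113% or lower.

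Genes were kept with filterByExpr (a count of about 10 in 4 libraries) and compared with edgeR 4.0.16 (TMM, glmQLFit, glmQLFTest, R 4.3.3) over all genes, blocking on replicate number, with Benjamini-Hochberg adjustment. Standard errors were derived from the test statistic. The threshold was an adjusted p of at most 0.05 together with a 1.5-fold change, or at the adjusted p alone where the text says so. Pair differences used log2 CPM with a prior count of 2. Hspa1a failed the filter, so its mean pair difference stands in place of a fitted value. The block follows from the 4 mice named for 8 samples. The link between numbers and mice is inferred, and the deviations of libraries with the same number correlated at 0.825, 0.489, 0.879 and 0.765 across 11985 genes, against at most 0.183 between different numbers. No pair of libraries within a group agreed within sampling noise (lowest chi-square per degree of freedom 32.6), so none was counted as a duplicate. PCR copies cannot be told from separate molecules here, so counting intervals cover counting error only.

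The text names the members, Mettl3, list genes with an adjusted p of 0.05 or less, Hspa5, Hspd1 and Egr1 as reference genes of their lists, and for Hspa1b, Hsp90aa1 and Hspa8 the 5 most similar profiles. Some cell type markers, some genes that overlap or share sequence with a member, and the profiles like Dnajb1 and Hsph1 were named after their values were seen. Members and lists were chosen with earlier results of these data known. Promoters and transcripts were read from the GRCm39 genome with GENCODE M39 starts. Alternatives were removeBatchEffect with limma-trend (limma 3.58.1), DESeq2 1.42.0, other filters, scalings, lengths and left-out replicates. Only the main edgeR fit was tried on simulated counts, and the alternatives were not.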

Additional observations from a re-analysis of the deposited data

Results flagged for a closer look

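The 22 groups of 4 values examined were those of the members and of Mettl3 in each group. Of these, 6 held a library past the 95% critical value of Dixon's test, which takes the gap to the nearest other library over the range. Chance would give about 1 in 20 groups, or 1.1 here, if the groups were separate. They were not, since libraries of the same replicate number are linked, and Dnajb1 and Hsf1 were each flagged in both groups. All 6 values belonged to replicate 3. Dnajb1 stood at 306 CPM in Mettl3-RNP 3, against 60.8 to 99.0 CPM in the other libraries of the group, and at 353 CPM in Pulsed 3, against 53.5 to 83.4 CPM. Hsf1 stood at 55.8 CPM in Mettl3-RNP 3, against 31.9 to 33.6 CPM, and at 57.1 CPM in Pulsed 3, against 33.1 to 35.5 CPM. Dnaja1 stood at 180 CPM in Mettl3-RNP 3, against 128 to 135 CPM. Mettl3 stood at 11.2 CPM in Pulsed 3, against 24.5 to 26.5 CPM.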

How the results depend on the processing

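Of 279 values recomputed under an alternative, 235 kept their direction and their side of the threshold, or, for counts, stayed within 1.5 times, or, for values with no test, moved by less than 1 SD of the pairs. Without the replicate block 0 genes passed either threshold (smallest adjusted p 0.427, 579 genes at an unadjusted p under 0.05), 0 genes of the cytosolic network and 0 of the ER list passed, Dnajb1 had a log2 fold change of -0.011 and Mettl3 one of -1.31 with an adjusted p of 0.744. The block changed no other call on a member. DESeq2 gave 505 genes past the threshold and 1449 past the adjusted p alone, 11.7% of genes, among them 1 member, 4 of 27 genes of the cytosolic network, 2 of 8 mitochondrial chaperones and 1 of 14 immediate early genes. limma-trend after removeBatchEffect, which takes no degrees of freedom for the removal, gave 973 and 4564 genes (30.5%), with 1 member, 11 of 27 genes of the network, 7 of 8 TRiC subunits, 6 of 15 ER and 6 of 8 mitochondrial chaperones and 2 of 14 immediate early genes. With every gene that had a count 579 and 993 of 33650 genes passed (2.95% at the adjusted p alone), with 5 of 15 immediate early genes, and with at least 10 counts in every library 959 passed the adjusted p (7.67%), with 1 member, 2 of 26 genes of the network and 1 of 8 mitochondrial chaperones. A fold change of at least 2 left 111 genes. The member was Hsp90aa1 each time, at -0.29 in all 3 fits. When each replicate was left out, 26 to 331 genes passed the threshold and 26 to 383 the adjusted p, the fewest without replicate 2, and 0 to 1 genes did in each of the network, ER and immediate early lists. Hspa1a then ran from 0.41 to 1.38 and the intronless contrast from 0.10 to 1.01. In those fits Hspa1b ran from -0.38 to 0.61, Hsph1 from -0.038 to 0.10 (-0.0067 without replicate 4) and Dnajb1 from -0.029 to 0.27. The causes were not tested. The order of the levels changed with the union of exons as length, which put Bag3 above Dnaja1, and was the same with the canonical transcript, an alternative chosen after seeing the data. Hspa1a and Hspa1b rest on at most 7 and 20 counts in a library, and both counting error and the spread between pairs enter their values.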
